A study of Caenorhabditis elegans with 4 samples.

Results

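The histone genes of *C. elegans* were described in aged wild-type (N2) worms kept with and without remofuscin, the compound that the labels call soraprazan. Members were the probes whose identifier mapped to a gene named his-, hil- or htz-, or to hcp-3 or cpar-1. This gave 107 of the 43603 probes on the array, and these read 58 of the 19814 named genes. By type, the probes read 9 H2A, 10 H2B, 11 H3, 10 H4, 9 linker histone H1 and 5 H3.3-like genes, the H2A.Z gene htz-1, both CENP-A genes and the short H3-related gene his-73. The members were chosen by gene name alone and not by any measured value.

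The study compared worms on plates with 0 µM (NC, negative control) and 200 µM remofuscin. All were of the Bristol N2 strain, started as 3-day-old worms (the first day of adulthood) on *E. coli* OP50 at 25 °C and collected after 14 days. Each of 2 independent experiments gave 1 array per group, so every group holds 2 arrays of pooled whole worms, and that number limits the precision of every value. For the lifespan plates the methods name fluorodeoxyuridine, an inhibitor of DNA synthesis, and dimethyl sulfoxide as the solvent of remofuscin, given to the controls as well. For the array plates the methods name neither.

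Histones package DNA. H2A, H2B, H3 and H4 form the core around which DNA is wound, and linker histone H1 binds where the DNA enters and leaves that core. Most core histone genes are replication-dependent: many near-identical copies lie in runs along the chromosomes and are used in S phase, when new DNA has to be packaged. Variants such as H3.3, H2A.Z and the centromeric CENP-A are supplied outside S phase or placed at particular sites. In an adult worm the somatic cells no longer divide, and the germline and the embryos inside the mother are the places of DNA replication. In whole worms, fewer cells of a type and less RNA per cell cannot be told apart.

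Features of the measurement bear on the core histone genes. The labelling kit primes from the poly(A) tail, and the mRNA of replication-dependent histones in animals mostly ends in a stem-loop in place of such a tail. How far this lowered their signals was not tested. In addition, copies of 1 type are so alike that a probe named for 1 gene may bind the RNA of several. The gene table lists 83 histone genes, and 25 of them had no probe of their own: 8 of 17 H2A genes, 7 of 17 H2B genes, 4 of 15 H3 genes and 6 of 16 H4 genes. All H1, H3.3-like, H2A.Z and CENP-A genes had one. The table gives the same length to most copies of a type, 312 bases for 15 H4 genes, 411 bases for 15 H3 genes and 384 bases for 15 H2A genes. Each probe is assigned to 1 gene in the files and probe sequences were not compared, so the values of core histone genes of 1 type may not be independent of each other.

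The 4 arrays lay on 1 slide and were scanned on 1 day. Between 63.3% and 66.6% of the non-control spots of an array were well above background, no spot was saturated, and the 75th percentile of the signal ranged from 603.2 to 785.7. Signals below were scaled to that percentile and are in intensity units. They compare arrays for 1 probe, and the highest mean signal of a type or list served only to choose which genes are named. Of the 107 histone probes, 106 were well above background on all 4 arrays and were tested with limma among 29095 probes. The exception was hil-8, an H1-like gene, with signals of 10.67 and 5.21 in NC and 19.3 and 9.02 in remofuscin-treated worms (experiments 1 and 2), well above background on 1 array. Over the tested genes the signals of single arrays ran from 22.9 (his-73) to 113000 (the H4 gene his-60).

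No histone probe passed the limits for a difference between remofuscin-treated and NC worms. The limits, those of the methods, were an unadjusted p under 0.05 (here from limma) together with a 2-fold difference. They were passed upward by 0 of 106 histone probes (1.84% of all tested probes) and downward by 0 (1.01%). At an unadjusted p under 0.05 alone the count was also 0 (3.21% of all probes), and 0 after adjustment over all tested probes (0.437%). The limma adjusted p of every histone probe was at least 0.9999, so it is not repeated at each gene, and values after ± are standard errors of the fit over 2 arrays per group. Once the experiment entered as a block, 5 probes of hil-3, hil-7, his-18 and his-73 had an unadjusted p under 0.05, all lower in remofuscin-treated worms and each under 2-fold. These were 4.72% of the histone probes, against 5.78% of all tested probes lower by the same rule, and 0 of them passed after adjustment (5.09% of all tested probes in either direction). The methods' t-test put 4 histone probes, of hil-7 and his-17, under an unadjusted limit of 0.05 (3.77%, against 3.65% of all tested probes).

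The fitted log2 differences ran from -0.75 for his-18 to 0.44 for the H2A gene his-47, and the median over the 106 probes was -0.09, against -0.02 over all tested probes. In all, 78 of the 106 lay below 0. Without the experiment as a block, the interval of the difference (95%) stayed within 2-fold in both directions for 43 of the 106 probes. For the others it did not leave out a difference of that size. With the experiment as a block, the interval stayed within 2-fold for 93 of the 106. That fit left 1 residual degree of freedom and gave every probe a common SD of 0.269. Over the 57 tested genes, with 1 probe each, the median was -0.06 and 36 were lower, while over all tested genes the median was 0.00. The NC and remofuscin signals did not overlap for 7 of the 57 genes, against 3015 of all 14767 tested genes. The 7 are hil-7, his-18, his-47, his-11, his-4, his-40 and his-71, described below.

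The groups of histone genes did not lie alike within the 2 experiments. In experiment 1, 45 of the 57 genes were lower in remofuscin-treated worms, with a median of -0.20, and in experiment 2, 29 were lower, with a median of 0.00. Over all tested genes the medians were -0.03 and 0.03. The medians of the H1, H3 and CENP-A genes and the value of his-73 had the same sign in both experiments, and those of the H2A, H2B, H4, H3.3-like and H2A.Z genes did not.

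**Figure D1:**
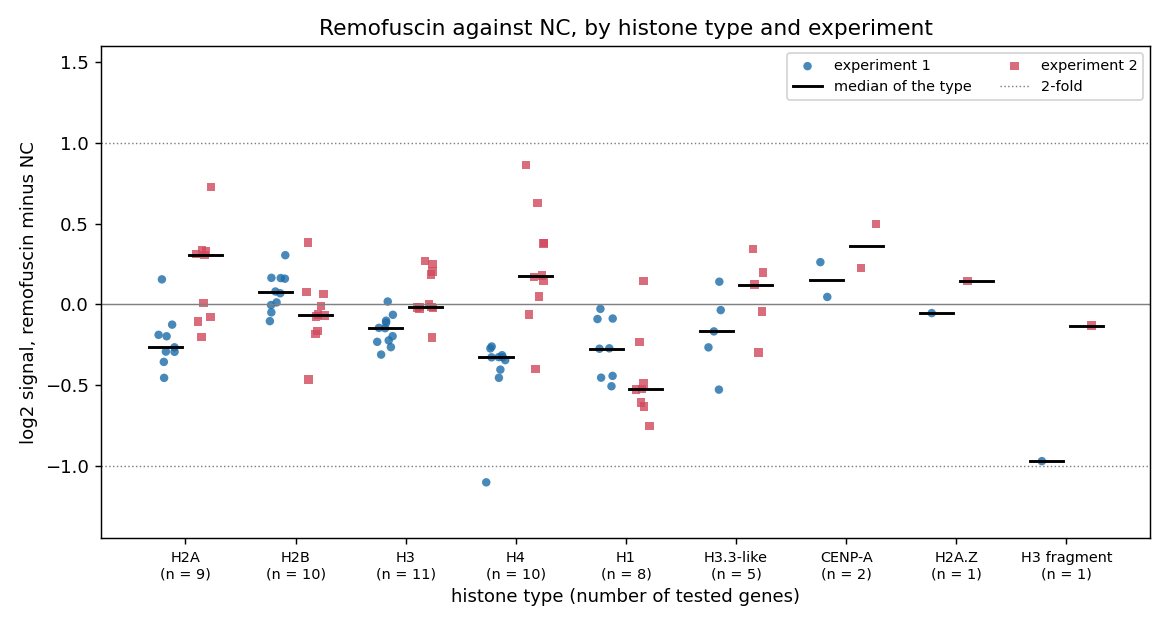
Log2 difference between remofuscin-treated and NC worms (vertical axis) for each of the 57 tested histone genes by type, with circles for experiment 1, squares for experiment 2 and black lines for the median of the type. The H1 genes had medians of -0.27 and -0.53, while the H4 genes had -0.33 in experiment 1 and 0.17 in experiment 2.

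The linker histones were the type with the lowest median after remofuscin, apart from the single gene his-73. All 8 tested H1 genes had a fitted log2 difference below 0, with a median of -0.38 and a range from -0.63 to -0.06. In the fit without the block, 0 of 8 passed an unadjusted p under 0.05. All 8 were lower in experiment 1 and 7 of 8 in experiment 2. The standard errors of the fitted differences were between 0.38 and 0.48, against a median difference of -0.38. The 8 genes kept this sign under median scaling, quantile normalization and normexp background correction.

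The largest difference among them was that of hil-3 (F22F1.1), an H1-like gene. Its signals were 3082 in NC and 2168 in remofuscin-treated worms in experiment 1, and 6150 and 3651 in experiment 2. Both remofuscin arrays lay below the NC array of their own experiment, but the groups overlapped because experiment 2 was higher in both. The fitted log2 difference was -0.63 ± 0.48 (SE, 2 arrays per group), with an interval (95%) from -1.73 to 0.47.

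The gene his-24 (M163.3), the linker histone H1.1, which has known roles in the germline, gave the same order. Its signals were 2376 and 1963 in experiment 1 and 4774 and 3075 in experiment 2 (NC, then remofuscin). The groups overlapped here too, and each remofuscin array was below its NC array. The log2 difference was -0.46 ± 0.47, and the 6 probes of his-24 ran from -0.46 to -0.39.

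The gene hil-7 (C01B10.5) was read by 10 probes, the most of any histone gene. Its signals were 982.5 and 1236 in NC and 722.4 and 811.2 in remofuscin-treated worms, in experiments 1 and 2. Here the groups did not overlap, both NC arrays being higher. Its log2 difference was -0.53 ± 0.38, and the 10 probes lay between -0.63 and -0.45.

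The other H1-like genes were hil-2, hil-4, hil-5, hil-6 and hil-1. In experiment 1, hil-2 gave 6586 in NC and 4806 in remofuscin-treated worms, and in experiment 2 it gave 10760 and 7481 (log2 difference -0.49 ± 0.44). For hil-4 the signals were 51740 and 50730, then 81960 and 69700 (-0.13 ± 0.42), and for hil-5 they were 30390 and 28580, then 57120 and 40680 (-0.29 ± 0.45). Both genes differed more between the experiments than between the groups. The gene hil-6 gave 3295 and 3093, then 5383 and 3735 (-0.31 ± 0.41). In contrast, hil-1 gave 2065 and 1710, then 1055 and 1165 (-0.06 ± 0.46), and was the only tested H1 gene with lower signals in experiment 2 than in experiment 1.

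**Figure D2:**
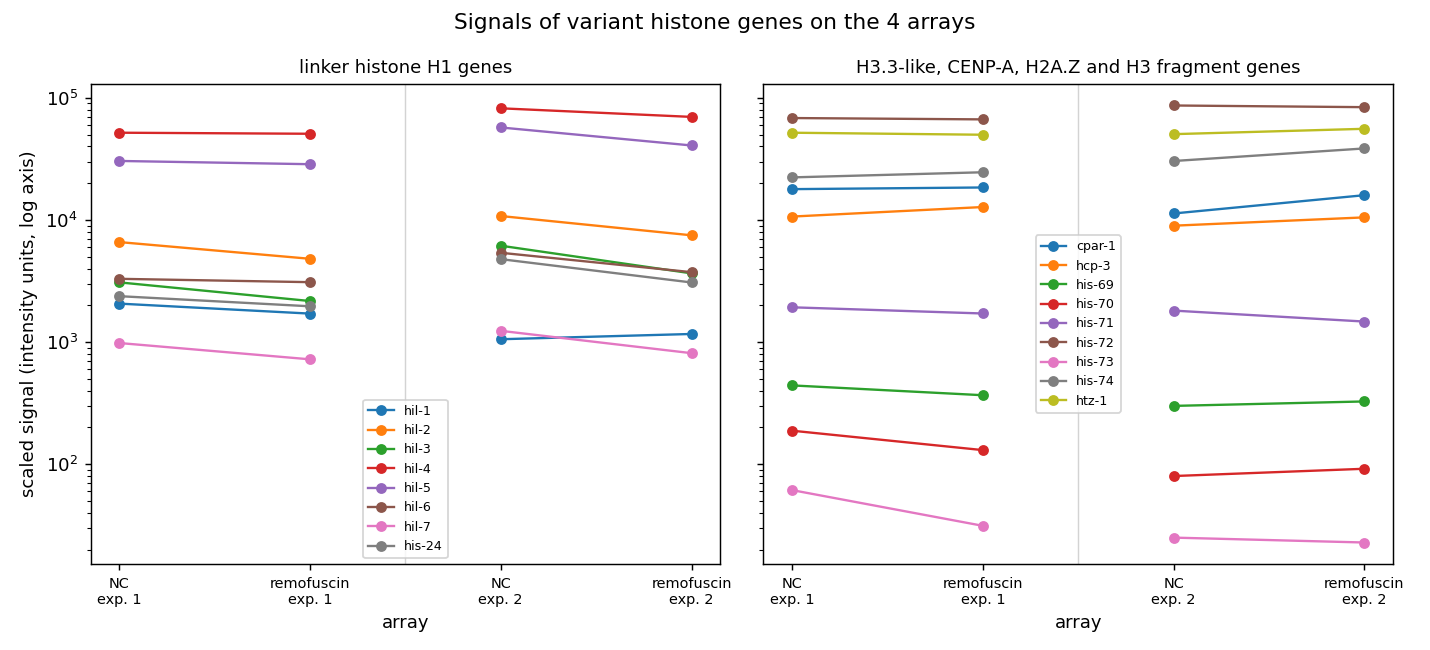
Scaled signal (log axis) of the 8 tested H1 genes (left) and of the H3.3-like, CENP-A, H2A.Z and H3 fragment genes (right) on the 4 arrays, with a line joining the NC and remofuscin arrays of each experiment. The lines of hil-3 run from 3082 to 2168 in experiment 1 and from 6150 to 3651 in experiment 2, while those of htz-1 stay between 49800 and 55700.

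The H4 genes had a median log2 difference of -0.33 in experiment 1, where 10 of 10 were lower in remofuscin-treated worms, and 0.17 in experiment 2, where 2 of 10 were lower. Single genes ran from -1.10 to -0.26 in experiment 1 and from -0.40 to 0.86 in experiment 2, and in the fit over both experiments the median was -0.08 (-0.14 under quantile normalization). The gene his-60 (F55G1.11), whose probe had the highest mean signal of its type, gave 113000 in NC and 90010 in remofuscin-treated worms in experiment 1, and 68740 and 89500 in experiment 2. The groups overlapped, with the NC arrays at both ends of the range (log2 difference 0.03 ± 0.41).

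The highest and lowest fitted differences among the H4 genes were those of his-38 (K03A1.6) and his-18 (K06C4.10). For his-38 the signals were 8050 and 6715 in experiment 1 and 3640 and 6615 in experiment 2, and the difference was 0.30 ± 0.46. The NC array of experiment 1 was above both remofuscin arrays and that of experiment 2 below them. For his-18 they were 76.2 and 35.5, then 37.9 and 28.7. Both NC arrays were higher, by a wide margin only in experiment 1, and the difference was -0.75 ± 0.45, with an interval (95%) from -1.79 to 0.28.

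The H2A genes had medians of -0.27 in experiment 1 (8 of 9 lower) and 0.31 in experiment 2 (3 of 9 lower), and 0.01 in the fit. The last value was below 0 under median scaling (-0.01) and quantile normalization (-0.06). The gene his-68 (T23D8.6), again the one with the highest mean signal, gave 20330 and 17720, then 16040 and 16130 (log2 difference -0.09 ± 0.38). The gene his-35 (C50F4.13), an H2A gene with a longer gene model (630 bases), gave 18620 and 16330, then 12410 and 15600 (0.07 ± 0.40), and its 6 probes lay between -0.05 and 0.07. In both genes the groups overlapped.

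The lowest and highest fitted H2A differences were those of his-53 (F07B7.3) and his-47 (B0035.7). The signals of his-53 were 6625 and 4830, then 4323 and 3760, overlapping between the groups (-0.33 ± 0.41). Those of his-47 were 117.8 and 131.1, then 101 and 167, both remofuscin arrays being higher (0.44 ± 0.38). The 5 probes of his-47 did not agree in size, from -0.05 to 0.44.

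The H2B genes were the core type whose experiments lay the other way, with medians of 0.07 in experiment 1 (3 of 10 lower) and -0.07 in experiment 2 (7 of 10 lower). The fitted median was 0.00 and turned below 0 under median scaling (-0.02), quantile normalization (-0.06) and normexp background correction (-0.05). The gene his-66 (H02I12.6) gave 11790 and 11880, then 13950 and 14720 (0.04 ± 0.38), with little spread among the 4 arrays. The gene his-11 (ZK131.5) gave 369.8 and 343.9, then 476.1 and 344.6, both NC arrays being higher (-0.29 ± 0.38). The gene his-4 (T10C6.11) gave 104.8 and 117.3, then 81.9 and 106.7, both remofuscin arrays being higher (0.27 ± 0.38).

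The H3 genes had medians of -0.15 in experiment 1 (10 of 11 lower) and -0.02 in experiment 2 (7 of 11 lower), and -0.05 in the fit. Under quantile normalization the last value was -0.13, with 10 of 11 lower. With 1 probe per gene, they covered the narrowest fitted range of the core types, from -0.18 to 0.07. The gene his-40 (K03A1.1) gave 17910 and 17110, then 17570 and 17240, so that its 4 arrays differed little, with both NC arrays higher (-0.05 ± 0.37). The ends of the range were his-17 (K06C4.5), with 1090 and 984, then 1320 and 1143 (-0.18 ± 0.38), and his-55 (F54E12.1), with 18020 and 16650, then 14170 and 16820 (0.07 ± 0.38). For these probes the groups overlapped in both genes. The 5 probes of his-17 ran from -0.48 to -0.09. The lowest gave 1012 and 758.2, then 1097 and 752.5, without overlap of the groups. Over all 40 tested H2A, H2B, H3 and H4 genes the medians were -0.20 and 0.03 in the 2 experiments and -0.03 in the fit.

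By the order of the gene table, 66 of the 83 histone genes lay in 16 runs of neighbouring histone genes, and 4 runs had a tested gene of every core type. In each of the 3 such runs of 4 genes (his-1 to his-4, his-31 to his-34, and his-59 to his-62), the H2B gene had the highest difference in experiment 1 and the H4 gene the lowest. The H2B genes his-4, his-34 and his-62 stood at 0.16, -0.0048 and 0.07, and the H4 genes his-1, his-31 and his-60 at -0.33, -0.40 and -0.33. In the run of 13 genes, the H2B gene his-44 was highest (0.30) and the H4 gene his-26 lowest (-0.46). The other tested H2B gene of that run, his-11, stood at -0.10, below the H3 gene his-42 (0.02). In experiment 2 an H2B gene was highest and an H4 gene lowest in the run of his-1 to his-4 and not in the other 3. There, for example, his-60 and his-26 stood at 0.38 and 0.38, above his-62 (0.06) and his-44 (-0.01). These orders describe 1 pair of arrays per experiment and were not tested.

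**Figure D3:**
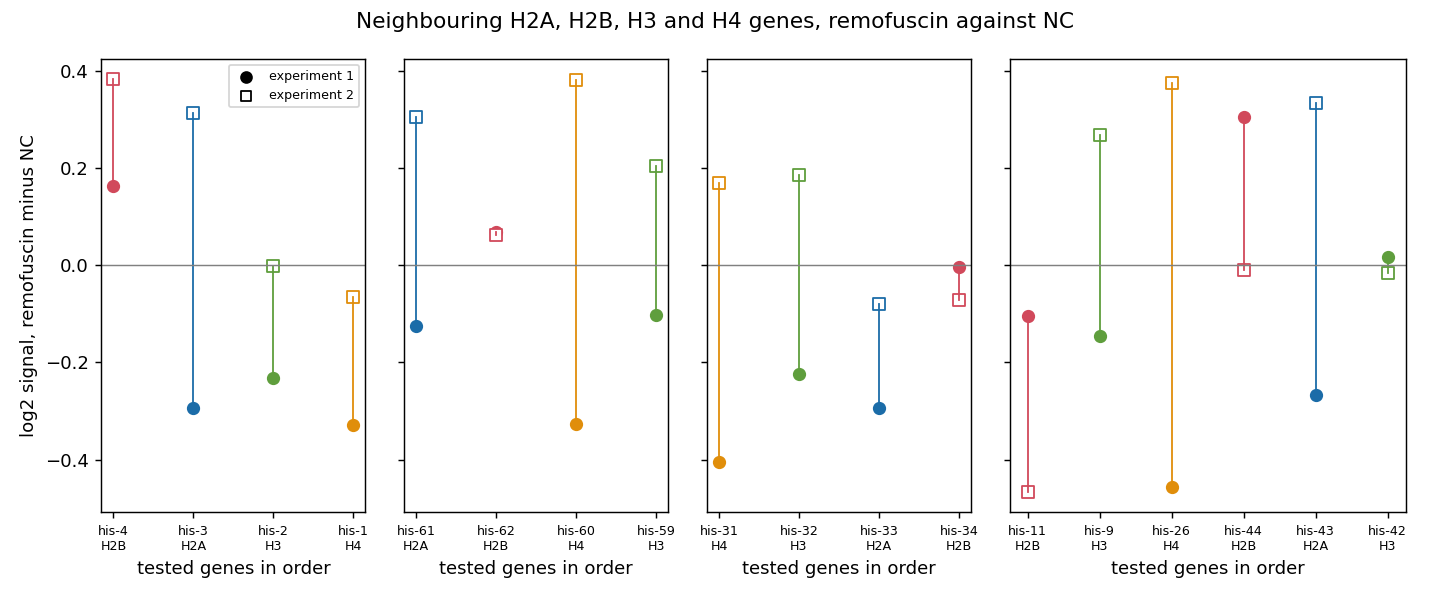
Log2 difference between remofuscin-treated and NC worms for the tested genes of the 4 runs in which every core type was tested, with filled circles for experiment 1, open squares for experiment 2 and a line between them. The H4 genes (orange) move from values between -0.46 and -0.33 in experiment 1 to values between -0.06 and 0.38 in experiment 2, while the H2B gene his-62 stays at 0.07 and 0.06.

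Among the replacement histones, the H3.3-like genes had medians of -0.17 and 0.12 in the 2 experiments and -0.07 in the fit (-0.12 with normexp background correction). The gene his-72 (Y49E10.6), which encodes H3.3, gave 68220 and 66520, then 86440 and 83740 (-0.04 ± 0.39), and its 5 probes lay between -0.08 and 0.01. The gene his-71 (F45E1.6), which also encodes H3.3, gave 1926 and 1714, then 1810 and 1472 (-0.23 ± 0.37). Both NC arrays were above both remofuscin arrays for his-71, whereas for his-72 the arrays separated by experiment and not by group.

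The neighbouring genes his-69 and his-70 were lower in experiment 2. The signals of his-69 (E03A3.3) were 441.9 and 367.2, then 300.3 and 326.6 (-0.07 ± 0.40), and those of his-70 (E03A3.4) were 188.2 and 130.5, then 80.1 and 91.8 (-0.17 ± 0.49). In each, NC was above remofuscin in experiment 1 and below it in experiment 2. The gene his-74 (W05B10.1) gave 22290 and 24550, then 30350 and 38470, with the remofuscin array higher in both experiments and the groups overlapping (0.24 ± 0.42).

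The H2A.Z gene htz-1 (R08C7.3), whose product replaces H2A at many gene starts, gave 51730 and 49800, then 50360 and 55700 (0.05 ± 0.37). The dimmer of its 2 probes had the reverse signs, at 0.02 and -0.19 in the 2 experiments and -0.09 in the fit. The CENP-A genes were both higher with remofuscin in both experiments. The gene hcp-3 (F58A4.3), which marks the centromeres, gave 10650 and 12750, then 8968 and 10490 (0.24 ± 0.38). Its paralog cpar-1 (F54C8.2) gave 17860 and 18430, then 11290 and 15940 (0.27 ± 0.41). The groups overlapped in both genes. The short gene his-73 (W09H1.2, 141 bases) gave 61.4 and 31.3, then 25.1 and 22.9 (-0.55 ± 0.50), where the first NC array stood above the other 3. With normexp background correction its difference was -0.18.

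Between the experiments, the fitted log2 differences of the histone probes ran from -1.05 to 0.87. In the fit of experiment 2 against experiment 1 over all 4 arrays, 0 of 106 histone probes were higher past the limits (3.88% of all tested probes) and 1 was lower (2.44%). At an unadjusted limma p under 0.05 alone, 13 were higher (15.5% of all tested probes) and 5 were lower (20.9%). Both shares of the histone probes, 12.3% and 4.72%, lay below these backgrounds, and 0 probes passed after adjustment, among the histone probes and among all 29095. The median over the histone probes was -0.05, against -0.17 over all tested probes. With each array scaled to its median, these medians were 0.05 and -0.07.

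All 13 higher probes read H1 genes, namely hil-3, hil-4, hil-5 and his-24. Of the 8 H1 genes, 7 were higher in experiment 2, against 5570 of all 14767 tested genes. The median of the 8 H1 genes was 0.62, against -0.24 over all tested genes. It was 0.71 between the NC arrays and 0.48 between the arrays of remofuscin-treated worms. The difference was 0.87 ± 0.33 for hil-3 (limma, adjusted p = 0.122), 0.83 ± 0.29 for his-24 (adjusted p = 0.113), 0.71 ± 0.25 for hil-5 (adjusted p = 0.115) and 0.56 ± 0.22 for hil-4 (adjusted p = 0.128). The 6 probes of hil-4 ran from -0.09 to 0.56. The exception to the higher H1 genes, hil-1 (C30G7.1), was lower in experiment 2 by limma, at -0.76 ± 0.23 (adjusted p = 0.104).

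The H4 genes lay the other way. All 10 were lower in experiment 2, with a median of -0.49, and this held within each group, at -0.77 between the NC arrays and -0.21 between the arrays of remofuscin-treated worms (10 of 10 lower in each). Over all tested genes 62.3% were lower in the fit, 60.6% between the NC arrays and 62.7% between the arrays of remofuscin-treated worms. Under quantile normalization the H4 median was -0.23, with 10 of 10 lower. The probe past the limits belonged to his-37 (C50F4.7), the H4 gene with the longest gene model of its type (503 bases), at -1.05 (limma, adjusted p = 0.103). The brighter of its 2 probes gave 11220 and 4738 in NC and 8939 and 7321 in remofuscin-treated worms, experiment 1 first, a difference of -0.77 ± 0.26 in the fit. Most of it came from the NC arrays, which differed by -1.24 on the log2 scale, against -0.29 for the arrays of remofuscin-treated worms.

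The medians of the other core types between the experiments were -0.32 for H2A (8 of 9 lower), -0.19 for H3 (10 of 11 lower) and 0.14 for H2B (3 of 10 lower), so that the H3 median lay above the -0.24 of all tested genes. Under quantile normalization the H3 median turned to 0.01 (5 of 11 lower) and the H2A median was -0.04 (6 of 9 lower), both above the median of all tested genes under that setting (-0.15). Besides hil-1 and his-37, the probes lower at p under 0.05 by limma were those of his-70 (-0.87 ± 0.26, adjusted p = 0.105) and his-73 (-0.87 ± 0.35, adjusted p = 0.129). Of the remaining variants, his-74 stood at 0.55 ± 0.23 and his-72 at 0.34 ± 0.21, htz-1 at 0.06 ± 0.22, and hcp-3 and cpar-1 at -0.26 ± 0.23 and -0.43 ± 0.25.

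**Figure D4:**
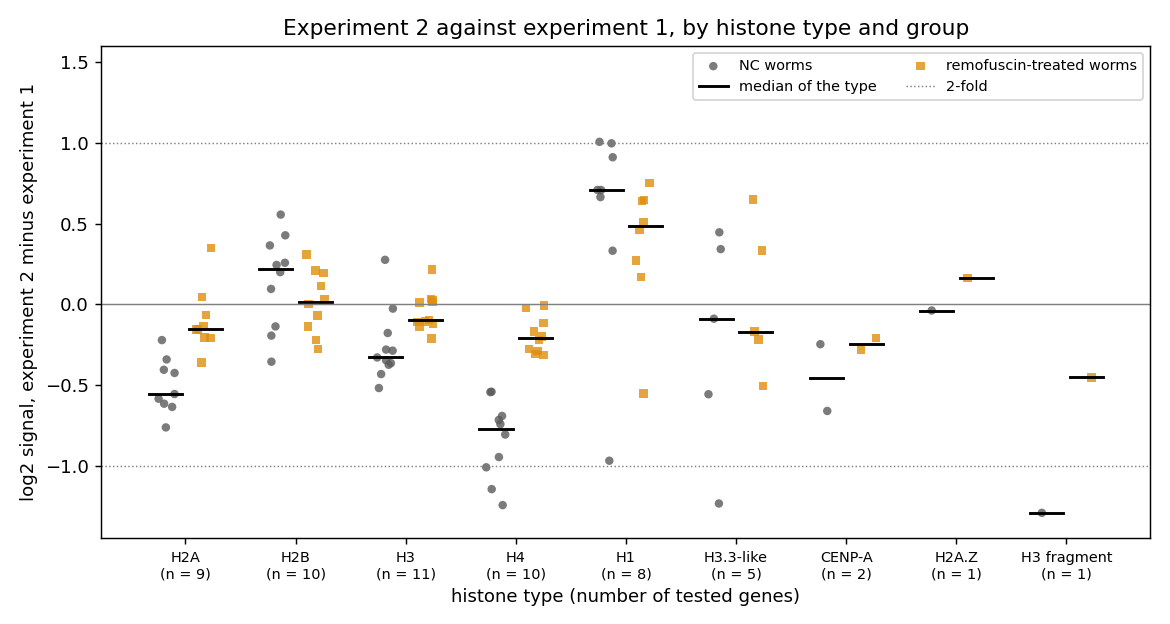
Log2 difference between experiment 2 and experiment 1 (vertical axis) for each of the 57 tested histone genes by type, with circles for NC worms, squares for remofuscin-treated worms and black lines for the median of the type. The H1 medians are 0.71 and 0.48 and the H4 medians -0.77 and -0.21, and each distance from 0 is larger in NC worms.

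Between the experiments, the germline, oocyte and intestine lists had medians above 0, as the H1 genes had. The medians of the meiosis and zygotic embryo lists lay below 0. Of 9 germline markers (among them glh-1, which encodes a P granule helicase, and gld-1, a regulator of germ cell translation), 9 were higher in experiment 2, with a median of 0.71. Of all 14767 tested genes, 5570 were higher. The limits were passed by 1 germline marker, gld-1 at 1.03, and upward by 471 of all tested genes. The summed signal of the 9 markers was 56430 (NC) and 56400 (remofuscin) in experiment 1, and 98780 and 83210 in experiment 2. Of 14 oocyte markers, 13 were higher in experiment 2 (median 0.58), with summed signals of 303200 and 374900 in NC and 287500 and 347200 in remofuscin-treated worms. Between the groups, 8 of 9 germline markers and 12 of 14 oocyte markers were lower with remofuscin, against 49.9% of all tested genes. Their medians were -0.15 and -0.12, and 0 passed the limits. In experiment 1, 5 of 9 and 8 of 14 were lower (medians -0.03 and -0.02). In experiment 2, 9 of 9 and 11 of 14 were lower (medians -0.24 and -0.22). No marker of either list was at background on any array. Meiosis markers went the other way between the experiments (median -0.35, 3 of 8 higher) and had a median of 0.06 between the groups. The 5 intestine markers had medians of 0.50 between the experiments and 0.13 between the groups, and the 5 tested of 6 markers of zygotic embryos -0.11 and 0.21. The part of the germline in the values of the H1 genes was not tested.

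The 2 genes of each list with the highest signals are given here, as log2 differences. In the germline list, glh-1 stood at -0.04 between the groups and 0.59 between the experiments, and mex-3, which encodes an RNA-binding protein, at -0.29 and 0.88. The meiosis genes syp-2 and him-3, both of the chromosome axis or the synaptonemal complex, stood at 0.34 and 0.12 between the groups and at -0.72 and -0.55 between the experiments. For the eggshell genes cpg-1 and cpg-2 of the oocyte list, the values were 0.00 and -0.14 between the groups, then 0.11 and -0.03. The embryonic genes end-3, a factor of the endoderm, and pes-10 stood at 0.23 and 0.23, then at -0.63 and -0.57. In the intestine list, vha-6, a proton pump subunit, and act-5, an actin of the microvilli, stood at 0.13 and -0.31, then at 0.54 and 0.50.

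A further list held genes for proteins of sperm chromatin. All 5 markers (spch-1, spch-2, spch-3, smz-1 and smz-2) were lower with remofuscin in the fit, with a median of -0.43 and 0 at an unadjusted p under 0.05 in the fit without the block. With the experiment as a block, spch-3 (-0.75) was below that limit, at a limma adjusted p of 0.0893. Their summed signals, mostly from spch-1 and spch-2, were 4098 and 4203 in NC and 3162 and 3016 in remofuscin-treated worms. These sums did not overlap between the groups. Taken singly, 3 of 5 genes did not overlap, against 3015 of 14767 tested genes. The genes smz-1 (-0.06) and smz-2 (-0.10) overlapped, and in experiment 2 both were higher with remofuscin (0.0045 and 0.09). The genes named for their signal were spch-1, with 1436 and 1068, then 1363 and 1010 (log2 difference -0.43), and spch-2, with 1388 and 1009, then 1829 and 1230 (-0.52). The 7 sperm markers, of which spe-11 and fer-1 were well above background on 2 arrays only, had a median of -0.20 and summed to 627.9 and 801 in NC and 451 and 552.4 in remofuscin-treated worms. The sperm phosphatase genes gsp-3 (-0.66) and gsp-4 (-0.74) and the gene spe-11 (-0.77) had an unadjusted p under 0.05 with the block alone. Their limma adjusted p was 0.191, 0.0999 and 0.0735. Of all tested probes, 12% had an unadjusted limma p under 0.05 with the block, 5.78% being lower with remofuscin. For spe-11 the 2 experiments disagreed, at 0.39 and -1.93, and the block, with a common SD for every probe, leaves that disagreement out. In the same list spe-9 (0.51) and spe-38 (0.17) were higher with remofuscin in the fit. Between the experiments, fer-1 was past the limits by limma, at 1.26.

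The genes that supply and place histones gave no call between the groups. Of 15 such genes, 0 passed the limits in either direction, and the median was -0.07. The chaperone genes with the highest signals were nap-1, with 25530 and 25320, then 23210 and 23510, and unc-85, an ASF1 gene, with 15230 and 15930, then 9840 and 13160. The signals of nap-1 hardly differed among the arrays. The gene cdl-1, the stem-loop binding protein that acts on replication-dependent histone mRNA, gave 3042 and 2961, then 4056 and 3363 (log2 difference -0.15). Between the experiments, at p under 0.05 by limma, 3 of the 15 were higher and 1 was lower. Of all 14767 tested genes, 1897 were higher and 3293 lower at this limit. The higher ones were ssl-1, a remodeller of the family that places H2A.Z (0.95), xnp-1, the ATRX gene (0.91), and spt-16, a subunit of the FACT chaperone (0.80). The lower one was hira-1, which places H3.3 (-0.82). After adjustment 0 of the 15 passed.

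The 31 genes of DNA replication and S phase also gave 0 calls past the limits between the groups, with a median of -0.05 and 19 lower. The sliding clamp gene pcn-1 gave 50920 and 51010, then 62760 and 60780, and the ribonucleotide reductase gene rnr-2 gave 46760 and 50360, then 35220 and 39270. Between the experiments their median was 0.28, against -0.24 over all tested genes. In experiment 2, 22 of the 31 were higher, against 5570 of all 14767 tested genes. At p under 0.05 by limma 6 were higher and 1 was lower, against 1897 and 3293 of 14767 tested genes. After adjustment 0 passed.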

How the data were processed

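RNA from whole worms was read on 1-colour Agilent arrays. The authors deposited scanner intensity values for every array, corrected for background within the array by Feature Extraction (11.5.1.1 in the file headers). A table of log2 values was deposited as well, which is unscaled and uncentred, since at least 99.97% of its values per array were within 0.01 of log2 intensity, and which served as an alternative.

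Control spots and outlier-marked spots (8 to 38 per array) were left out, repeated spots were averaged, and log2 values were scaled by subtracting the array's 75th percentile. Probes that 2 or more of the 4 arrays showed well above background were tested with limma 3.58.1 in R 4.3.3 (linear model and empirical Bayes, prior of 6.23 degrees of freedom, two-sided, adjusted by Benjamini-Hochberg over all tested probes). The model was checked on simulated arrays drawn without a difference between experiments, so the check does not cover the pairing of the real arrays. Printed signals are the scaled values returned to intensity units. A gene was represented by its probe with the highest mean signal. Standard errors and intervals come from this fit unless the block is named. Other scalings, background correction, filters, tests and the experiment as a block were tried, and their effects are given at the end.

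Samples of an experiment are paired, since by the labels every experiment gave an NC and a remofuscin array. Deviations from group means had a Pearson r of 0.736 across 29061 probes (Spearman rho 0.763).

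Of 43603 probes, 34320 were named through a RefSeq gene table of WBcel235, and the files give positions on an older build, so none were printed. Histone types were given from general knowledge of the gene names and set beside the gene lengths of the table, which holds no product names. Probe and gene sequences were not used here. Named were all variant genes and, per core type, the genes with the highest mean signal and the highest and lowest fitted difference, every probe past the limits, and of each other list the 2 genes with the highest signal. Further list genes named for their roles or for the contrast between experiments, and members of the neighbouring runs, were chosen after their values were seen. Members and lists (germline, meiosis, oocyte, zygotic embryo, sperm, sperm chromatin, intestine, histone supply and deposition, DNA replication and S phase) were chosen with earlier results of these data known. Figures were drawn in Python 3.11.15 with matplotlib 3.10.9.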

Additional observations from a re-analysis of the deposited data

Results flagged for a closer look

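In 4 of the histone types with at least 5 tested genes the median log2 difference between remofuscin-treated and NC worms had opposite signs in the 2 experiments, and none of these differences between experiments was tested. For H2A genes the median was -0.27 in experiment 1 and 0.31 in experiment 2, a distance of 0.57. For H4 genes it was -0.33 and 0.17, a distance of 0.50. For H3.3-like genes it was -0.17 and 0.12, a distance of 0.29. For H2B genes it went the other way, from 0.07 to -0.07, a distance of -0.14. The NC and remofuscin arrays of each experiment are single arrays. The single H2A.Z gene htz-1 had opposite signs too, at -0.05 and 0.15. Its dimmer probe had the reverse signs, at 0.02 and -0.19.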

How the results depend on the processing

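Between the groups, the count of histone probes past the limits stayed at 0 in both directions under all 10 alternatives that kept 4 arrays (scaling, quantile normalization, normexp with an offset of 50, the deposited log2 values, the methods' t-test, an intensity trend, no filter, a filter on all 4 arrays, outlier-marked spots kept, the experiment as a replicate block). After adjustment it was 0 under each of these and with any array left out. The methods' t-test gave 4 histone probes at an unadjusted p under 0.05 and 0 after adjustment. The replicate block left 1 residual degree of freedom and gave every probe a common SD of 0.269 on the log2 scale. It changed no call of a histone probe other than those given in the report. Of the marker and other lists it brought 4 genes under an unadjusted p of 0.05 (spch-3, spe-11, gsp-3 and gsp-4), against 12% of all tested probes.

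When an array was left out, the array that remained in that group was taken to vary as the other group does, and the difference between experiments enters the contrast. The count lower past the limits then ran from 0 to 2 (2 without NC replicate 1 and 2 without NC replicate 2), and that of higher probes stayed at 0. The median log2 difference ran from -0.21 to 0.065 over all histone genes, from -0.72 to -0.044 for H1, from -0.47 to 0.29 for H4, from -0.20 to 0.051 for H3, from -0.072 to 0.11 for H2B, from -0.27 to 0.31 for H2A and from -0.28 to 0.018 for H3.3-like genes. Of 420 alternative values of 30 named genes, 3 passed the limits, those of his-73 and his-18 without NC replicate 2 and that of hil-3 without NC replicate 1.

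Between the experiments, the count lower past the limits was 1, 0 under median scaling and 2 without a filter on dim probes. The H4 genes stayed 10 of 10 lower and the H1 genes 7 of 8 higher under every scaling, which was examined after seeing the data. With 2 arrays per group, standard errors of the histone genes lay between 0.37 and 0.50 on the log2 scale, and low signals such as those of his-18 and his-73 depend on the background correction.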
